A study of Mus musculus with 16 samples.

Results

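The BMAL1, CLOCK, ROR and REV-ERB loop of the circadian clock was followed through 6 genes, Arntl (which encodes BMAL1), Clock, Npas2, Nr1d1 (REV-ERBα), Nr1d2 (REV-ERBβ) and Rora (RORα). They were chosen by name from the 32989 genes of the expression tables, and where a symbol had several entries the one with the highest mean level was taken. All 6 were found in both organs. Poly(A)-selected RNA of liver and kidney from 8 male C57BL/6J mice had been sequenced, which gave 16 libraries. In the LD condition 4 mice (L63, L65, L86 and L104) lived under a fixed cycle of light and dark. In the ADV condition, a model of chronic jet lag, the other 4 mice (A75, A91, A94 and A115) had the cycle advanced by 8 h every 4 days. Both conditions lasted for 85 weeks, and the mice were then 97 weeks old. Liver and kidney came from the same animals. The organs were taken within a few hours early in the dark phase, counted from the last lights-on, and the hour of each mouse is not given in the sources used here. Each organ was therefore seen at a single time point per mouse, so the data hold levels and not rhythms.

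The loop turns transcription of the clock's activators on and off. BMAL1 pairs with CLOCK, or with its paralog NPAS2, on E-box sequences of DNA and switches on the genes of the repressors PER and CRY and of the REV-ERB nuclear receptors. REV-ERBα and REV-ERBβ in turn repress Arntl through elements that they share with RORα, which activates it, so that in liver and kidney of mice under a normal cycle Arntl and the Nr1d genes peak at opposite times of day.

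The ROR and REV-ERB receptors bind the core motif AGGTCA in these elements. Reference windows from 250 bases before to 50 after each transcription start (RefSeq, GRCm38.p6, the same build as mm10) were searched for it and for the E-box CACGTG on both strands, and all 6 genes matched a window, with 9 windows among them. AGGTCA was held by 3 of the 9 windows, 1 each of Arntl, Clock and Nr1d2, and by 16.3% of the 32851 windows of all genes. CACGTG was held by 7.15% of all windows and by no window of the 6 genes, which says only that these letters were not in these windows. In Arntl a further copy with a single altered letter, AGGTTA, began 36 bases before AGGTCA on the same strand. This variant was added to the search after the window had been seen, and 8.49% of all windows held it. The sites of Arntl and Clock are shown with the motif in capitals because they are the letters of the motif in genes of the activators, and the stretch before the start of Nr1d2 because it holds the same motif in a gene of the repressors. The Arntl sites lay at chr7:113207494-113207523 and chr7:113207530-113207559 on the plus strand, inside the span of the Arntl gene of the expression tables. The Clock site lay at chr5:76303604-76303633 and the Nr1d2 stretch at chr14:18239107-18239356, both on the minus strand. The Clock site lay inside the span of its gene and the Nr1d2 stretch ended at the base before its start. The Clock site is printed along the gene, so that the motif reads as its reverse complement.
Arntl, AGGTTA: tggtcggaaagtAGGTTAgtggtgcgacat
Arntl, AGGTCA: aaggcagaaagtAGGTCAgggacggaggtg
Clock, AGGTCA reversed: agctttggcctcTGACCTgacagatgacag
Nr1d2, AGGTCA: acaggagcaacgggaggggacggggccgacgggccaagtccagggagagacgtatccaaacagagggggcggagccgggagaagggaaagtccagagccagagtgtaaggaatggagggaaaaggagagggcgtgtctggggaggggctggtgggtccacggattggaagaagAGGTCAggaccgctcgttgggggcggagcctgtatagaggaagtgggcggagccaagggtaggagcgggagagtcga
A match is a description of letters, and no binding was measured in these mice.

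The levels below are FPKM, the fragments of a gene scaled to its exon length and to the total of the library, as the authors computed them. From 21092501 to 24285055 fragments of a library fell on genes in liver and from 15688495 to 18043306 in kidney. Mitochondrial genes took 33.8% of the fragments in the kidney of A115 and between 9.43% and 18.0% in the other kidneys. The mean correlation of the kidney of A115 with the other kidneys was 0.858, against at least 0.932 for the rest, and its summed level of kidney epithelium markers was 1367 FPKM, against 2705 to 4070 in the other kidneys. A94 had the highest summed leukocyte markers in both organs, with 222 FPKM in the liver and 348 in the kidney, against at most 141 and 150 in the others. Values without A115 are therefore given beside results that its kidney changed. In bulk tissue, fewer cells of a type and less RNA per cell cannot be told apart. The hepatocyte markers summed to between 58449 and 71992 FPKM in the livers and to at most 1075 in the kidneys, and the kidney epithelium markers to at most 1.37 FPKM in the livers.

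Arntl, the gene of the shared partner in both activator complexes, lies at chr7:113207465-113314126 on the plus strand and varied several fold among the mice. In the liver its level was 0.700, 1.30, 2.496 and 3.95 FPKM in L63, L65, L86 and L104, and 5.91, 1.06, 0.723 and 6.72 in A75, A91, A94 and A115. In the kidney it was 0.937, 1.04, 2.59 and 1.81 FPKM in the LD mice and 4.61, 0.822, 1.21 and 6.35 in the ADV mice, in the same order. A75 and A115 were the highest of all mice in both organs, A91 and A94 lay among or below the LD mice, and the groups overlapped. The highest level was 9.59 times the lowest among the livers and 7.72 times among the kidneys.

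Clock, whose protein is the partner of BMAL1 in most tissues, lies at chr5:76209868-76304548 on the minus strand. Its level in the liver was 3.22, 4.04, 5.08 and 6.77 FPKM in the LD mice and 7.50, 4.58, 3.34 and 9.44 in the ADV mice, with A75 and A115 again the highest and L63 and A94 the lowest. In the kidney the 4 LD mice were close to each other, at 6.69, 6.71, 6.41 and 7.16 FPKM, and the ADV mice had 5.56, 5.08, 4.29 and 9.13. There A75, A91 and A94 lay below every LD mouse and A115 above all of them. The table has a second, shorter Clock entry, which stayed between 0.165 and 0.917 FPKM in the 16 libraries and was not used.

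Npas2, the paralog that can replace CLOCK, lies at chr1:39194272-39363240 on the plus strand and was close to the detection limit in the liver. There 0, 1, 1 and 2.5 fragments were counted in the LD mice and 10, 2, 3 and 43 in the ADV mice, which made 0.446 FPKM in A115 and at most 0.103 FPKM in the others. The 0 fragments of L63 allow up to 3, which is 0.0295 FPKM. In the kidney the level was 0.310, 0.400, 0.924 and 0.457 FPKM in the LD mice and 1.03, 0.340, 0.268 and 1.05 in the ADV mice, from 22 to 84 fragments. A75 and A115 were the highest and A94 the lowest in the kidney, and the groups overlapped in both organs.

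Nr1d1, the gene of the repressor REV-ERBα, lies at chr11:98767932-98775377 on the minus strand, where its end overlaps Thra on the other strand. The libraries were stranded, but whether the counting used the strand is not given in the sources used here, so some reads of Thra may be in its values. The level in the liver was 9.20, 5.25, 6.20 and 5.73 FPKM in the LD mice and 2.20, 8.78, 6.22 and 1.40 in the ADV mice. In the kidney it was 11.5, 8.18, 6.93 and 5.90 FPKM in the LD mice and 6.55, 20.2, 13.5 and 2.24 in the ADV mice. A115 was the lowest mouse in both organs, A75 was the next lowest in the liver, and A91 was the highest mouse in the kidney and the highest ADV mouse in the liver.

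Nr1d2, which encodes the related repressor REV-ERBβ, lies at chr14:18204056-18239106 on the minus strand and had the highest level of the 6 genes in every library except the liver of A115. In the liver the LD mice stayed between 20.7 and 24.1 FPKM, at 23.4, 21.7, 24.1 and 20.7, and the ADV mice had 15.1, 30.6, 24.7 and 6.72. In the kidney the LD mice had 44.1, 33.2, 29.5 and 32.1 FPKM and the ADV mice 17.8, 39.4, 32.3 and 26.8. A75 and A115 were the lowest mice in both organs, with A115 lower in the liver and A75 lower in the kidney.

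Rora, the gene of the activating receptor RORα, lies at chr9:68653786-69388246 on the plus strand and varied least. Its level in the liver was 5.96, 8.13, 9.74 and 8.39 FPKM in the LD mice and 8.60, 9.43, 5.81 and 7.34 in the ADV mice. In the kidney it was 9.45, 10.1, 7.93 and 8.37 FPKM in the LD mice and 5.20, 7.34, 6.80 and 9.05 in the ADV mice. The highest liver was 1.67 times the lowest and the highest kidney 1.94 times the lowest, with A94 the lowest liver and A75 the lowest kidney. Neither A75 nor A115 was the highest or the lowest mouse in the liver. Rorb, which encodes a related receptor, was listed at 0 in every liver and reached 0.106 FPKM in the kidneys, and Arntl2, the paralog of Arntl, had at most 0.248 FPKM in the livers and 0.571 in the kidneys.

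**Figure D1:**
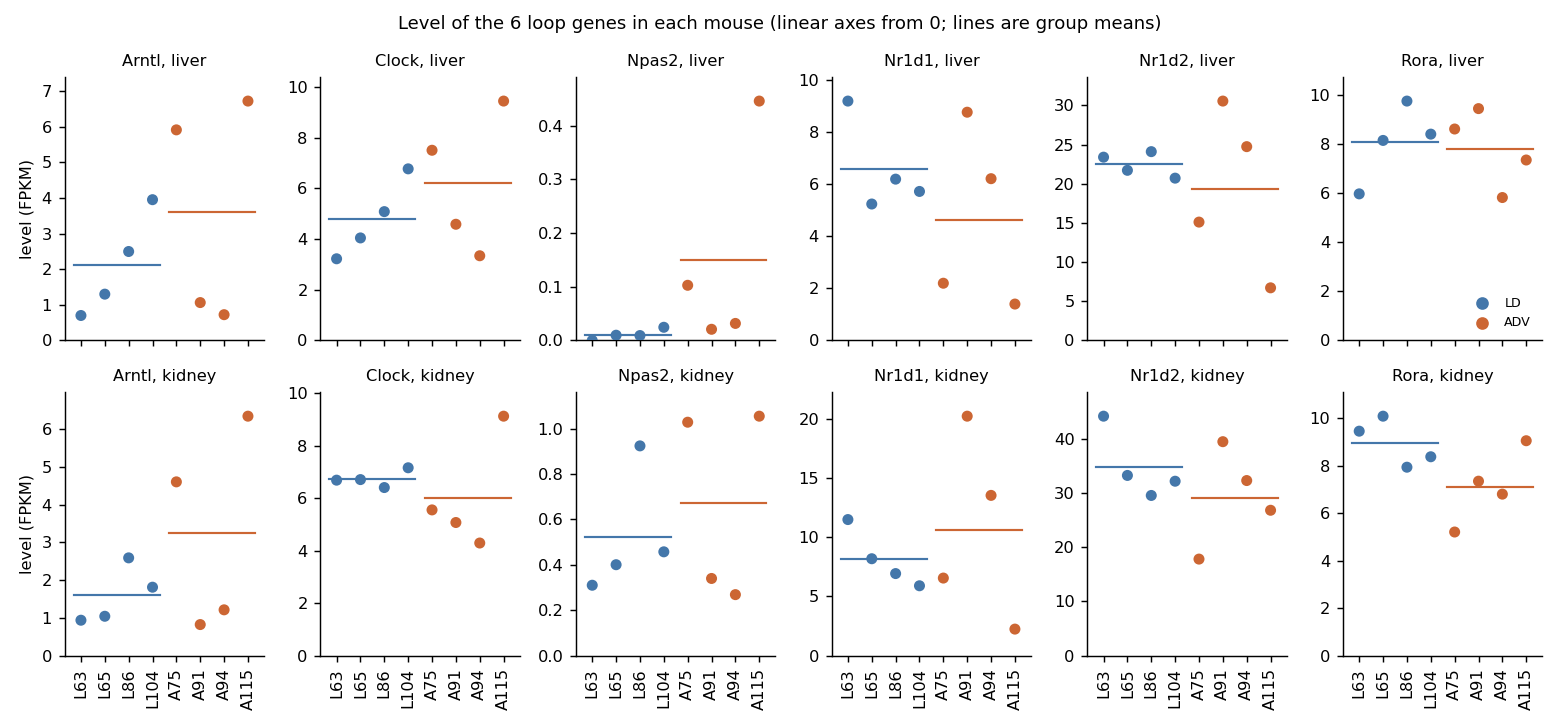
Level of each of the 6 loop genes in FPKM (vertical axes, linear from 0) in the 4 LD and 4 ADV mice (horizontal axis) for liver (top) and kidney (bottom), with 1 point per mouse and a line at each group mean. A75 and A115 are the highest points for Arntl in both organs and the lowest for Nr1d2, and the groups overlap in every panel.

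The comparison of ADV with LD asks whether the loop was at another level after the long misalignment. In the liver, 5 of the 6 genes passed the filter on low values, a mean above 0.5 for FPKM times exon length in kb, and Npas2, with a mean of 0.335, did not. The differences (ADV minus LD on the log2(FPKM + 0.1) scale) were 0.43 ± 0.76 (SE) for Arntl, 0.31 ± 0.33 for Clock, −0.81 ± 0.51 for Nr1d1, −0.43 ± 0.39 for Nr1d2 and −0.05 ± 0.19 for Rora (n = 4 mice per group). By limma with Benjamini-Hochberg adjustment over 12835 genes, 0 of the 5 passed an adjusted p of 0.05, where 0.00779% of all genes did, and the adjusted p ranged from 0.514 to 0.922. At an unadjusted p under 0.05, 0 of the 5 passed, where 11.8% of all genes did, and limma-voom on the recovered fragments called 0 as well. The groups did not overlap for 0 of the 5 genes, against 8.84% of all genes. The widest interval was that of Arntl, with a 95% interval of the difference from −1.27 to 2.14, so that it held changes of either direction. Single mice moved each difference. When each mouse was left out in turn, the difference ranged from −0.048 to 0.97 for Arntl, from 0.078 to 0.57 for Clock, from −1.23 to −0.37 for Nr1d1, from −0.72 to 0.0052 for Nr1d2 and from −0.18 to 0.083 for Rora. Without A115 it was −0.048 for Arntl, 0.078 for Clock, −0.37 for Nr1d1 and 0.0052 for Nr1d2. Without A91 it was −1.23 for Nr1d1 (limma adjusted p = 0.236), which then was lower at an unadjusted p under 0.05, as were 3.93% of all genes.

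For Npas2 the liver libraries of the ADV mice held 58 fragments in all and those of the LD mice 4.5. The ratio of the depth-scaled fragments was 13.9 (95% exact interval 5.80 to 59.4, covering counting error only). Without A115 it was 4.81 (1.72 to 22.4), from 15 fragments. Over mice, the two-sided exact permutation test of the log2(FPKM + 0.1) values gave p = 0.057 (n = 4 per group), where 0.029 is the smallest p that 4 against 4 allow. The same exact test gave p = 0.343 for Nr1d1, 0.429 for Clock, 0.514 for Nr1d2, 0.657 for Arntl and 0.771 for Rora.

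In the kidney all 6 genes passed the filter. The differences were 0.65 ± 0.67 (SE) for Arntl, −0.22 ± 0.24 for Clock, 0.21 ± 0.48 for Npas2, 0.02 ± 0.63 for Nr1d1, −0.30 ± 0.26 for Nr1d2 and −0.35 ± 0.20 for Rora (n = 4 mice per group). Among 14452 genes, limma called 0 of the 6 after adjustment and 0 at an unadjusted p under 0.05, where 0% and 3.1% of all genes passed. limma-voom also called 0, and the groups did not overlap for 0 of the 6, against 2.8% of all genes. The exact permutation p was lowest for Rora (p = 0.114) and highest for Nr1d1 (p = 1).

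Without A115, Clock was lower in the kidneys of the ADV mice. The difference was −0.44 (95% interval −0.71 to −0.17, n = 4 LD and 3 ADV mice, limma adjusted p = 0.0384), and each of the 3 remaining ADV kidneys lay below each LD kidney. Clock was the 1 of the 6 genes called there. In that comparison 18.8% of all genes were called in either direction, a share near that of the loop, and 2.68% were called lower. The median difference over all genes was 0.20 there. The difference was 0.18 for Arntl, −0.043 for Npas2, 0.62 for Nr1d1 and −0.28 for Nr1d2 without A115, and 1.12 for Arntl and −0.42 for Nr1d1 without A91. Rora without A115 had −0.48 (−0.81 to −0.14, adjusted p = 0.0552) and its 3 ADV kidneys, at 5.20 to 7.34 FPKM, were also below all LD kidneys, at 7.93 to 10.1. The share of all genes whose groups lie apart without A115 was not computed, so neither separation can be set against it. Without A115 and after scaling by the median ratio of the libraries, Clock had −0.63 (adjusted p = 0.0268) and Rora −0.67 (adjusted p = 0.0397). With that scaling 16% of all genes were called, and 1143 of 14475 were called lower. Leaving out A94 as well, which was chosen after seeing the data, Clock had −0.34 (adjusted p = 0.126) and Rora −0.52 (adjusted p = 0.0991), 0 of the 6 genes were called after adjustment and 4.7% of all genes were. The summed leukocyte markers were 50.8 to 348 FPKM in the kidneys of A75, A91 and A94 and 43.3 to 147 in those of the LD mice, the summed stroma and endothelium markers 77.2 to 173 and 73.4 to 100.5, and the part of either in the difference was not tested. Sequencing had been done by a pair of providers on different instruments. Which library came from which is not given in the sources used here. An effect of the provider can therefore not be told apart from that of the condition or the organ.

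**Figure D2:**
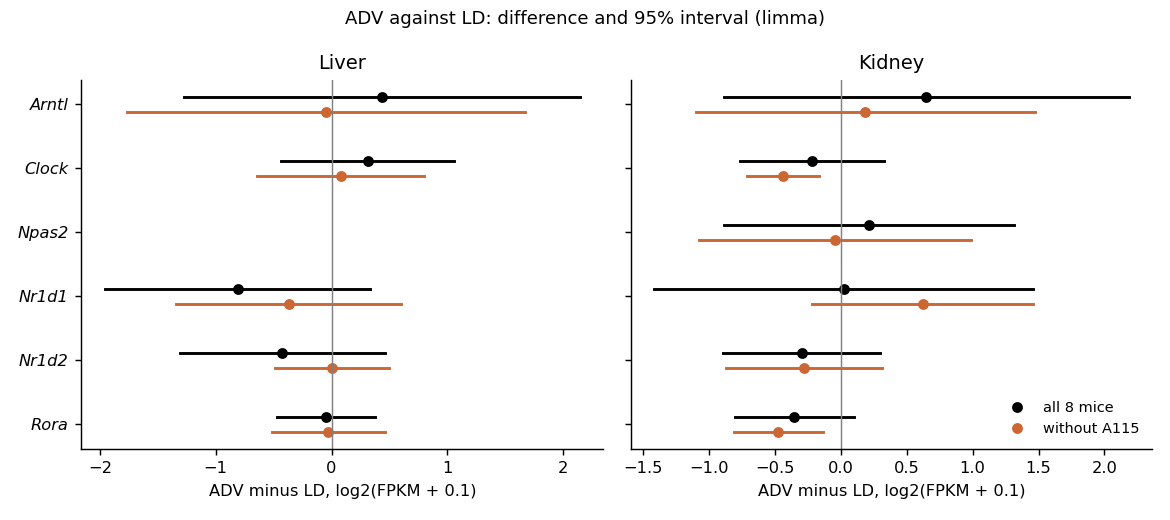
Difference between ADV and LD for each loop gene on the log2(FPKM + 0.1) scale (horizontal axis), with the 95% interval of limma, in liver (left) and kidney (right), for all 8 mice (black) and without A115 (orange). With all mice every interval crosses 0, and without A115 those of Clock and Rora in the kidney lie below it, at −0.44 and −0.48. Npas2 has no bar in the liver, where it did not pass the filter.

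The ADV effect was compared between the organs in 1 model of the 16 libraries over 14968 genes. The difference of the effects (kidney minus liver) was 0.83 ± 0.87 (SE) for Nr1d1, 0.21 ± 1.11 for Arntl, 0.13 ± 0.52 for Nr1d2, −0.30 ± 0.28 for Rora, −0.53 ± 0.44 for Clock and −0.68 ± 0.68 for Npas2. By limma 0 of the 6 passed the adjusted threshold and 0 an unadjusted p under 0.05, where 0% and 3.71% of all genes did, and limma-voom called 0. With the mouse as a replicate block, Nr1d1 had an unadjusted p of 0.0095 (0.83, 95% interval 0.26 to 1.40, limma adjusted p = 0.999) and was the 1 gene of the 6 under 0.05, where 3.47% of all genes were. With the block and without A115, a fit chosen after seeing the data, Nr1d1 had 0.99 (95% interval 0.56 to 1.42, limma adjusted p = 0.0350) and was the 1 of 6 called, where 3.51% of all genes were called.

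Between the organs, each mouse had more Npas2 in its kidney than in its liver. In the LD mice the kidneys held 154 fragments and the livers 4.5, a depth-scaled ratio of 47.6 (95% exact interval 20.5 to 199, covering counting error only), and in the ADV mice 208 and 58, a ratio of 4.45 (3.31 to 6.06). Of the 58 liver fragments 43 were from A115, and without that mouse the ratio in ADV was 10.3 (6.03 to 19.0), from 124 and 15 fragments. On the log2(FPKM + 0.1) scale, on which the pseudocount shrinks low genes, the difference was 2.40 in LD and 1.73 in ADV. Npas2 entered the fit only through the kidney, where it is high, so no p is given for it. Of the other 5 genes, which passed the filter in both organs, limma called 0 after adjustment and 0 at an unadjusted p under 0.05 in each condition, and limma-voom called 0, where 66.6% and 62.9% of all genes were called by limma in LD and ADV.

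The kidney libraries as deposited were higher for most genes, with a median over all genes of 0.80 in LD and 0.69 in ADV on the log2 scale. Scaling by the median ratio took this to 0.05 and 0.0033, so that an unscaled difference below these medians was lower than that of most genes. With that scaling Npas2 had 2.06 in LD and 1.26 in ADV, and after quantile normalization 1.24 and 0.56. Rora went from −0.14 (adjusted p = 0.568) to −0.86 (adjusted p = 0.0192) in ADV and from 0.17 to −0.64 (adjusted p = 0.0714) in LD, so that its direction in LD changed with the scaling. Clock in LD changed from 0.54 to −0.26 and Nr1d1 in LD from 0.29 to −0.52 in the same way.

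The organ differences were also fitted with the mouse as a replicate block, since both organs came from the same animal. Clock in LD (0.54, adjusted p = 0.0368), Nr1d1 in ADV (1.12, adjusted p = 5.4e-04) and Nr1d2 in ADV (0.74, adjusted p = 0.0396) were then called, where 67.6% and 64.2% of all genes were called in LD and ADV. Nr1d2 in ADV rested largely on A115, whose kidney was at 26.8 FPKM and liver at 6.72. Without A115 the block gave 0.33 for Nr1d2 (adjusted p = 0.0292) and 1.28 for Nr1d1 (adjusted p = 2.3e-05) in ADV, and 0.61 for Nr1d2 (adjusted p = 3.5e-04) and 0.54 for Clock (adjusted p = 0.0170) in LD, where 83.2% and 81.8% of all genes were called in LD and ADV. The medians over all genes were 0.80 and 0.69 with the block over all mice, and 0.80 and 0.88 without A115. Under scaling by the median ratio without the block, Clock in LD had −0.26, Nr1d1 in ADV 0.40 and Nr1d2 in ADV 0.0076. Both repressor genes had a higher unscaled level in the kidney than in the liver in all 8 mice. How many of all genes did so was not computed, and the unscaled kidney libraries were higher for most genes. In LD the differences of 0.29 for Nr1d1 and 0.61 for Nr1d2 lay below the median over all genes. Both were negative in LD after scaling by the median ratio. For Nr1d1 the kidney and liver were at 6.55 and 2.20, 20.2 and 8.78, 13.5 and 6.22, and 2.24 and 1.40 FPKM in the ADV mice, and at 11.5 and 9.20, 8.18 and 5.25, 6.93 and 6.20, and 5.90 and 5.73 in the LD mice.

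The 4 mice of a group were further apart in ADV than in LD for most genes of the loop, and so were most genes at large. The SD over the 4 livers on the log2 scale was larger in ADV for 5 of the 5 genes that passed the filter, against 76.5% of all genes, and in the kidney for 6 of 6, against 90.1%. Without A94 the share of all genes in the liver fell to 56.5% and the median ratio over all genes from 1.65 to 1.13, with 4 of the 5 genes of the loop wider in ADV. In the liver the ratio of the SDs was 9.72 for Nr1d2 (0.10 in LD and 0.96 in ADV), a ratio exceeded by 1.71% of all genes, and 3.42 for Nr1d1 (0.35 and 1.21), exceeded by 17.3%. Without A115 the ratio of Nr1d2 fell to 5.24, exceeded by 10.1% of all genes, without A94 it was 10.9, exceeded by 0.281%, and without L63 that of Nr1d1 rose to 10.1. Arntl had a ratio of 1.54, beside a median of 1.65 over all genes (1.39 beside 1.13 without A94), with SDs of 1.02 in LD and 1.58 in ADV. The LD value of Arntl was exceeded by 0.288% of all genes in the liver and by 3.16% in the kidney.

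In the kidney the ratio was 7.07 for Clock (0.07 in LD and 0.46 in ADV), exceeded by 18.0% of all genes, and 3.37 for Nr1d1, exceeded by 46.8%. Without A115 the ratio of Clock was 2.84 (an SD of 0.18 in ADV), exceeded by 14.3% of all genes, and that of Nr1d1 was 2.01, exceeded by 26.8%. Without L104 the ratio of Clock was 12.6, and without L63 that of Nr1d1 was 5.88. Without A115 the median ratio over all genes fell from 3.13 to 1.26 and the share of genes with a larger SD in ADV from 90.1% to 61.8%, and 6 of the 6 genes of the loop kept a larger SD in ADV, with a median ratio of 1.96. Rora had the smallest ratio in the liver, 1.03, which was 2.20 without L63 and 0.62 without A94. No test was made of these spreads, which rest on 4 mice a group.

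**Figure D3:**
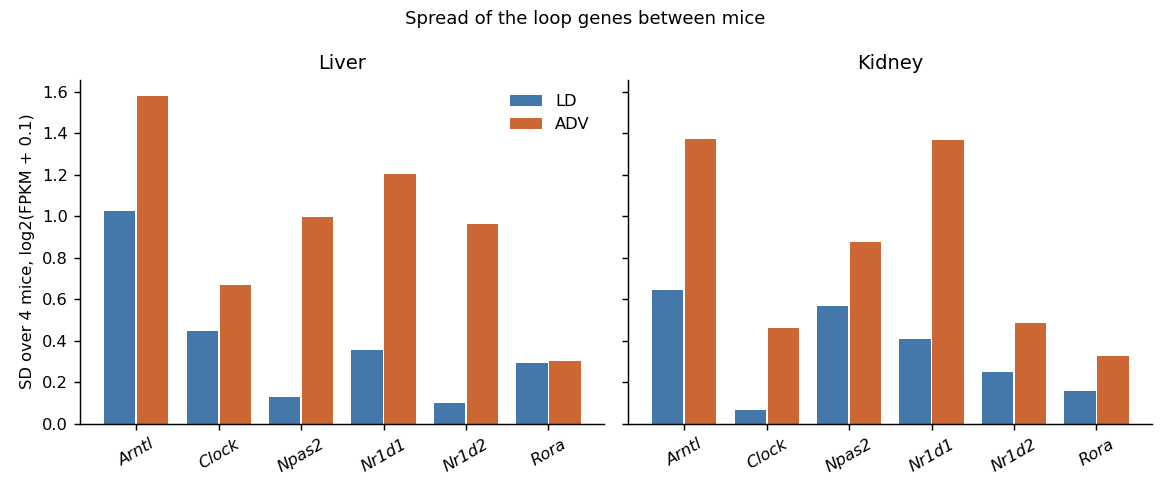
SD over the 4 mice of a group for each loop gene on the log2(FPKM + 0.1) scale (vertical axes, from 0), for LD (blue) and ADV (orange) in liver and kidney. Nr1d2 in the liver goes from 0.10 to 0.96 and Clock in the kidney from 0.07 to 0.46, while Arntl has a high bar in both conditions. The low bar of Npas2 in the LD livers stands for 0 to 2.5 fragments per library.

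Over the 8 mice, by Pearson's r, Arntl rose with Clock in the liver and with Npas2 in both organs, and fell as Nr1d1 and Nr1d2 rose in both organs. Clock in the kidney and Rora in either organ did not pass against Arntl. Across 16 relations computed as 1 family, 9 passed a Benjamini-Hochberg adjusted two-sided exact permutation p of 0.05 with Pearson's r and 7 with Spearman's rho. In the liver, Clock rose with Arntl (r = 0.97, rho = 0.98, exact permutation p = 7.4e-05, adjusted p = 0.0012, n = 8 mice). Nr1d1 was lower where Arntl was higher (r = −0.83, rho = −0.90, exact p = 0.0047, adjusted p = 0.0124), and so was Nr1d2 (r = −0.75, rho = −0.79, exact p = 0.0042, adjusted p = 0.0124). For both repressors A75 and A115 lay apart from the other 6 livers, among which r was −0.54 for Nr1d1 (exact permutation p = 0.263) and −0.46 for Nr1d2 (exact permutation p = 0.389). Npas2 in the liver had r = 0.70 (rho = 0.67, exact p = 0.0111, adjusted p = 0.0198), from few fragments. The p printed in these brackets are those of r. By rho, Npas2 (adjusted exact permutation p = 0.148) and Nr1d2 (adjusted exact permutation p = 0.0559) in the liver did not pass. Rora had r = 0.45 (rho = 0.36, exact p = 0.264, adjusted p = 0.302).

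In the kidney, Npas2 rose with Arntl (r = 0.93, rho = 0.83, exact permutation p = 0.0012, adjusted p = 0.0093). Nr1d1 (r = −0.86, rho = −0.86, exact p = 0.0025, adjusted p = 0.0111) and Nr1d2 (r = −0.82, rho = −0.95, exact p = 0.0071, adjusted p = 0.0141) fell as Arntl rose. Clock had r = 0.49 (exact p = 0.219, adjusted p = 0.269) and Rora r = −0.31 (exact p = 0.463, adjusted p = 0.494). Between the organs of a mouse, Arntl (r = 0.91, rho = 0.86, exact p = 0.0028, adjusted p = 0.0111) and Nr1d1 (r = 0.84, rho = 0.81, exact p = 0.0054, adjusted p = 0.0124) were related, while Clock (r = 0.57, adjusted exact p = 0.199), Npas2 (r = 0.65, adjusted exact p = 0.0691), Nr1d2 (r = 0.53, adjusted exact p = 0.248) and Rora (r = −0.18, adjusted exact p = 0.685) did not pass.

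Each relation was then taken over the 6 mice that remain after leaving out the 2 mice farthest from the median of the measure on the x axis, which were A75 and A115 in every relation but that of Rora between the organs. With 6 mice the smallest two-sided rank p is 0.0028, which multiplied by the 16 relations is 0.0444, so that calls were hardly possible and r is the value to compare. By r 0 of the 16 passed after adjustment, by rho 0, and 2 had an unadjusted exact permutation p under 0.05 by r. Arntl and Clock in the liver kept r = 0.95 (rho = 0.94, exact p = 0.0042, adjusted p = 0.0667), and Arntl and Npas2 in the kidney r = 0.85 (exact p = 0.0319). In the kidney, Arntl had r = −0.76 with Nr1d1 and r = −0.78 (rho = −0.94, exact permutation p of rho = 0.0167) with Nr1d2. Between the organs, Arntl had r = 0.77 and Nr1d1 0.70. In the liver r fell to 0.14 for Npas2 with Arntl (exact permutation p = 0.776), a relation that rested on A75 and A115, beside the lower values for Nr1d1 and Nr1d2 given above. The sign was kept in 15 of 16 relations. When the mean of each condition was subtracted and the mice were permuted within conditions, 1 of 16 passed, Arntl with Clock in the liver (r = 0.98, exact permutation p = 0.0017, the smallest that these permutations can give, adjusted p = 0.0278). The 9 relations that had passed kept r between 0.74 and 0.98 in size, with 0.95 for Nr1d1 and 0.91 for Arntl between the organs, and 0.94 for Npas2 and −0.91 for Nr1d1 with Arntl in the kidney. Without A115, 4 of 16 passed, those of Arntl between the organs, with Clock in the liver and with Npas2 and Nr1d2 in the kidney, and without A94, 9 of 16. Without A115, r with Arntl in the kidney was 0.09 for Clock and −0.66 for Rora. Between the organs it was then 0.62 for Nr1d1 (adjusted exact permutation p = 0.183) and 0.82 for Nr1d2 (adjusted exact permutation p = 0.111).

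**Figure D4:**
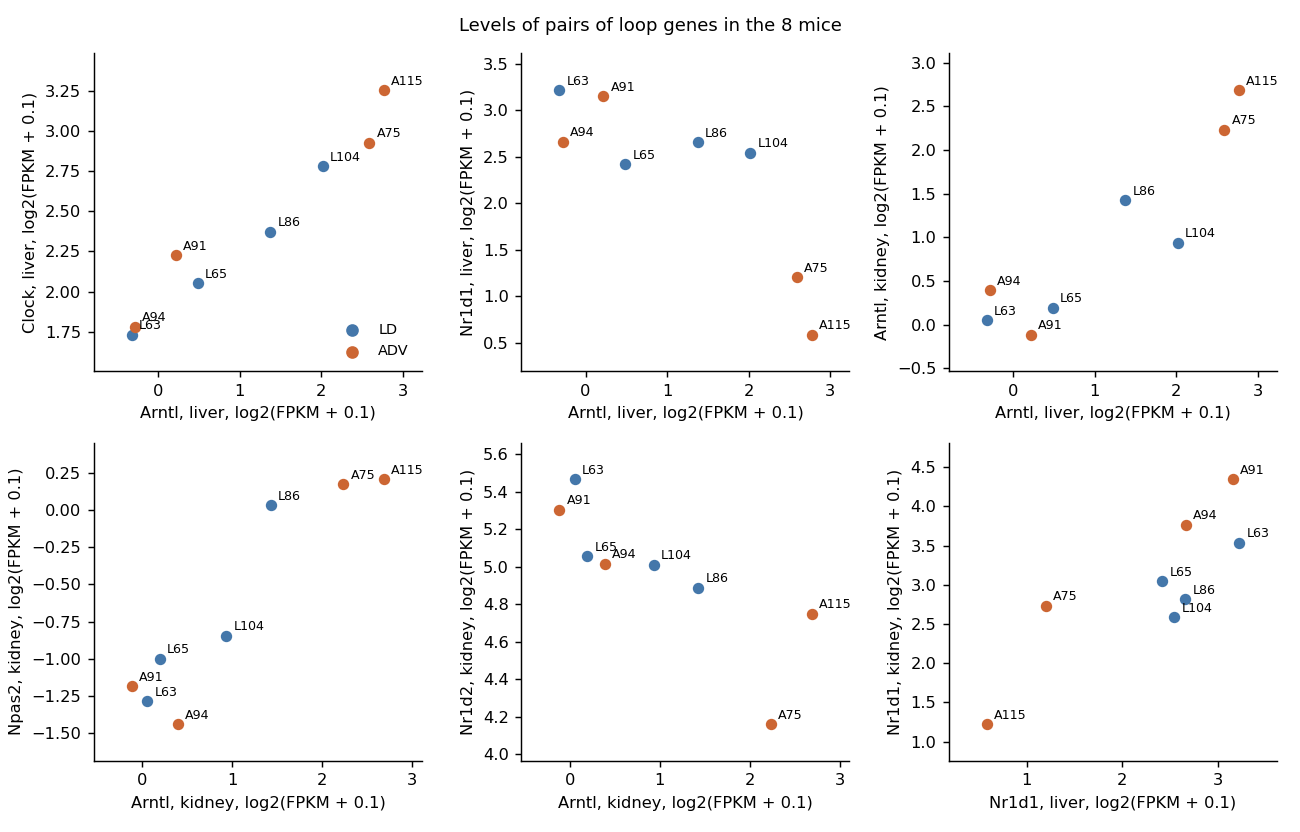
Log2(FPKM + 0.1) of pairs of loop genes, with 1 labelled point per mouse (LD blue, ADV orange). Clock rises with Arntl in the liver (r = 0.97) and Npas2 with Arntl in the kidney (r = 0.93), Nr1d1 and Nr1d2 fall (r = −0.83 in the liver and −0.82 in the kidney), and A75 and A115 lie at the end with high Arntl or low liver Nr1d1.

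The other genes whose pattern was most like the members over the 16 libraries, after the mean of each organ had been subtracted, were ranked among 12313 genes as a description. Nearest to Nr1d1 were Dbp (r = 0.94), Per3 (0.92) and Ciart (0.92), of which Dbp encodes a PAR bZIP transcription factor driven through E-boxes, Per3 a period protein and Ciart a repressor of CLOCK and BMAL1. Dbp was also the gene most opposite to Arntl (−0.93), followed by Rdh14 (−0.91) and 1810014B01Rik (−0.87). In the livers, Dbp was at 2.40 and 1.33 FPKM in A75 and A115, at 37.8 and 33.7 in A91 and A94, and at 8.25 to 28.6 in the LD mice. Nearest to Arntl were Mfsd6 (0.89), Leo1 (0.86) and Net1 (0.85). Nearest to Clock were Caprin1 (0.95), 4932438A13Rik (0.93) and Lgalsl (0.90), to Npas2 Slc34a2 (0.87), Dctn4 (0.86) and Leo1 (0.85), to Nr1d2 Coq10b (0.92), Klhl24 (0.91) and Hnmt (0.85), and to Rora Pgm2l1 (0.89), Map3k2 (0.89) and Abhd3 (0.87). The libraries share their mice, and A115 took part in each value.

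Among 14 repressors and outputs driven through E-boxes, the genes that the activators of the loop switch on, 0 passed an adjusted p of 0.05 by limma in either organ. At an unadjusted p under 0.05, 2 were lower and 0 higher in the liver, where 11.8% of all genes passed and 3.13% were lower, and 3 were lower and 0 higher in the kidney, where 3.1% passed and 1.35% were lower. The difference was negative for 13 of the 14 in the liver, with a median of −0.39 against 0.10 over all genes, and for 11 of the 14 in the kidney, with a median of −0.43 against −0.02. The count of negative differences in the kidney depended on A115. Without it the difference was negative for 7 of the 14, with a median of −0.034 against 0.20 over all genes. At an unadjusted p under 0.05 by limma, 5 of the 14 were then lower and 2 higher, where 5366 of 14475 genes passed. After adjustment 2 were lower and 1 higher, where 18.8% of all genes were called and 2.68% were called lower. In the liver without A115 the difference was negative for 12 of the 14, with a median of −0.25 against 0.093. Per2, which encodes a period repressor, had −0.56 in the liver (adjusted p = 0.362), with 6.33, 7.98, 8.44 and 10.7 FPKM in the LD mice and 4.11, 5.72, 5.97 and 6.74 in the ADV mice. In the kidney it had −0.76 (adjusted p = 0.9999), with 11.0, 12.2, 9.65 and 12.8 FPKM in LD and 8.84, 7.94, 7.70 and 3.68 in ADV, so that all ADV kidneys were below all LD kidneys, as for 1.83% of all genes.

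Cry2, the gene of a cryptochrome repressor, had −0.37 in the liver (adjusted p = 0.385), and the ADV livers, at 5.32 to 8.00 FPKM, were below the LD livers, at 8.15 to 9.40, as for 1.89% of all genes in the liver. In the kidney, Cry1, which encodes the other cryptochrome and is also driven through ROR elements, had −0.64, Hlf, a PAR bZIP factor, −0.51, and Wee1, a kinase that holds back mitosis, −0.35, each with an adjusted p of 0.9999. Wee1 was lower in all ADV kidneys (6.73 to 8.46 FPKM) than in all LD kidneys (8.90 to 11.7), as for 1.83% of all genes in the kidney. Without A115, Per2 in the kidney had −0.48 (adjusted p = 0.0326) and Cry1 −0.76 (adjusted p = 0.0245), while Per1, named here after its value was seen, had 0.47 (adjusted p = 0.0394). Hlf had −0.51 (adjusted p = 0.101) and Wee1 −0.33 (adjusted p = 0.113) and did not pass. Cry2 in the kidney without A115 had a difference above 0, at 0.39 (limma adjusted p = 0.0748), and did not pass. Its level there was 5.31 to 7.32 FPKM in A75, A91 and A94 and 4.63 to 5.09 in the LD mice. In that comparison 18.8% of all genes were called and 2.68% were called lower.

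Of 4 genes driven through ROR elements, 4 were tested in the liver and 3 in the kidney, with medians of −0.17 and −0.34 (−0.66 and −0.37 without A115). At an unadjusted p under 0.05 by limma, 0 of the 4 passed in the liver and 1 of the 3, Cry1, was lower in the kidney, and 0 passed after adjustment in either organ. Of all genes, 11.8% passed the unadjusted threshold in the liver and 3.1% in the kidney, 1.35% as lower, and these shares stand beside the counts of each list that follows. Of 4 genes of the corepressor that REV-ERB recruits, the difference was negative for 2 in the liver (median −0.043) and 3 in the kidney (median −0.22), and without A115 for 2 in the kidney (median −0.18). Ncor1, the subunit of that complex which binds REV-ERB, had −0.46 in the kidney (adjusted p = 0.9999), and −0.60 (adjusted p = 0.0225) without A115, where 18.8% of all genes were called and 2.68% were called lower. Of 7 coactivators of ROR and of CLOCK and BMAL1, 0 passed an unadjusted p under 0.05 by limma in either organ and the medians were −0.10 and −0.19, and of 8 kinases and ligases that modify proteins of the loop, 0 passed, with medians of −0.05 and −0.08. Without A115 the medians in the kidney were −0.13 and 0.018, and of the kinases and ligases 1, Ube3a, a ubiquitin ligase gene named after its value was seen, was lower (−0.72, limma adjusted p = 0.0176). Leukocyte markers had a positive difference for 8 of 8 genes in both organs (median difference 0.79 in the liver and 0.86 in the kidney), with 2 and 0 of them past an unadjusted p of 0.05 and 0 after adjustment. Stroma and endothelium markers had a positive difference for 7 of 8 genes in both organs (median 0.54 and 0.48), with 4 and 2 past an unadjusted p of 0.05 and 0 after adjustment. Their summed level was 132 to 144 FPKM in the LD livers and 172 to 353 in the ADV livers, which did not overlap. Dcn made up most of that sum in each liver, with at most 119.5 FPKM in LD and at least 147.0 in ADV. Of the 8 stroma and endothelium genes, 2 had groups that did not overlap in the liver, where 8.84% of all genes did. The summed leukocyte markers, at 62.1 to 108 FPKM in the LD livers and 94.7 to 222 in the ADV livers, overlapped. The part of both lists in the differences of the clock genes was not tested.

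**Figure D5:**
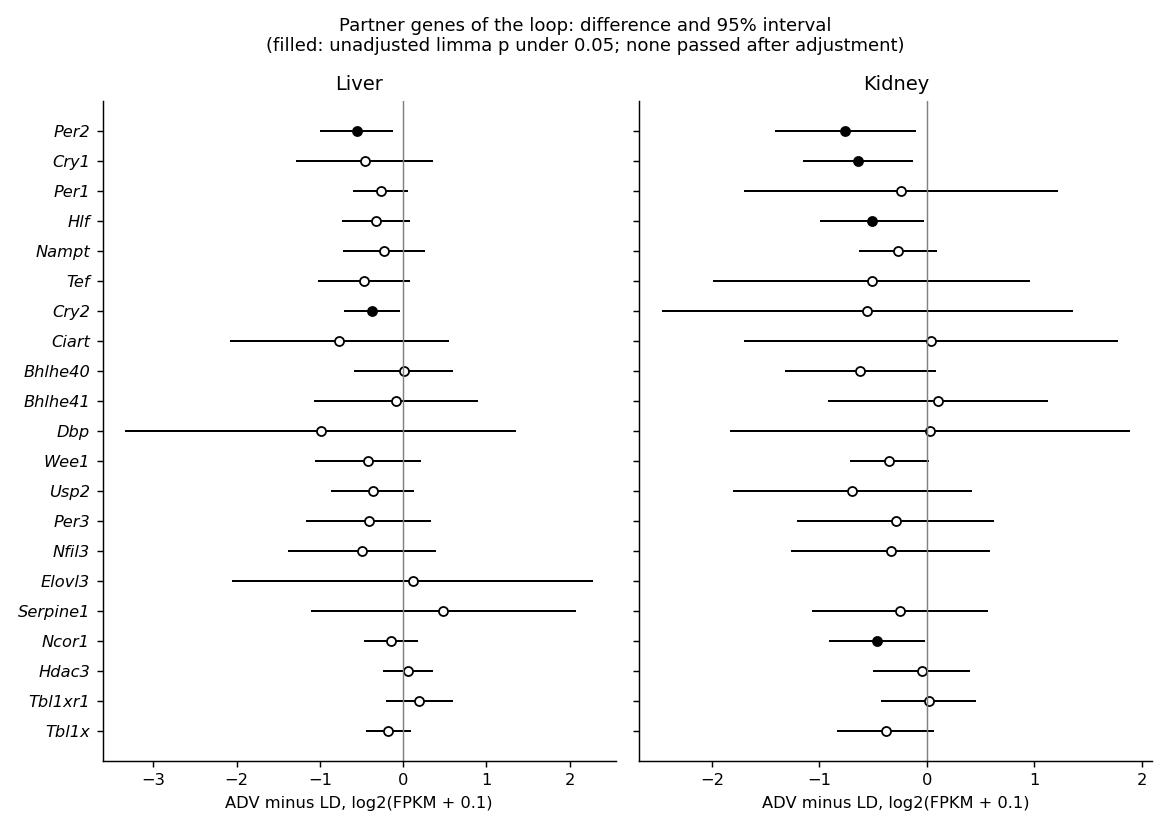
Difference between ADV and LD on the log2(FPKM + 0.1) scale (horizontal axis) with the 95% interval for genes driven through E-boxes or ROR elements and for the REV-ERB corepressor, in liver (left) and kidney (right). Filled points have an unadjusted limma p under 0.05 (Per2 and Cry2 in the liver, Per2, Cry1, Hlf and Ncor1 in the kidney), all of them left of 0, and none passed after adjustment.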

How the data were processed

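Liver and kidney RNA of 4 LD and 4 ADV mice was taken as 16 libraries, 1 per organ and mouse, and each mouse is a replicate. The authors trimmed adaptors with Trimmomatic, mapped to GRCm38/mm10 with STAR 2.5.4b, removed reads with a mapping quality under 10 and counted exons with Homer against the UCSC known canonical set. The deposited values are FPKM, scaled by the authors to exon length and library total only. The deposited exon lengths gave back fragments in steps of 0.5. The authors' DESeq2 test was not run, since the values are not counts.

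Log2(FPKM + 0.1) was tested with limma 3.58.1 (R 4.3.3, trend in the variance prior) in each organ, and in 1 fit of 4 groups for the organs. Adjusted p are Benjamini-Hochberg values over all genes whose FPKM times exon length in kb had a mean above 0.5. Exact permutation tests were two-sided. The scripts were tested on simulated data. The alternatives were pseudocounts of 0.5 and 1, other filters and scalings, no trend, limma-voom, leaving out mice, and the mouse as a replicate block. The 6 genes and all gene lists were chosen with earlier results of these data known. The genes named beside the 6 were those of the lists with an unadjusted p under 0.05 or groups that did not overlap, the paralogs, and the 3 most correlated genes of each member. The mouse numbers pair the organs because both came from the same animal. Correlations of the deviations of liver and kidney across genes ran from −0.02 to 0.55. Further genes of the lists were left out and are not reported here.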

Additional observations from a re-analysis of the deposited data

Results flagged for a closer look

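In 48 groups of 4 mice (each organ and condition for the loop genes and for Per2, Cry1, Cry2, Hlf, Wee1 and Ncor1), the log2 levels were searched for a mouse far from the other 3, and 3 groups had one, where chance gives about 1 in 20 groups. For Per2 in the ADV kidneys, A115 lay below the others, and its gap made up 0.842 of the range of the group. For Cry2 in the same kidneys, A115 again lay below the others, at 0.380 FPKM against 5.31 to 7.32, with a ratio of 0.885. For Wee1 in the LD kidneys, L86 lay above the others, with a ratio of 0.879. No group of the 6 loop genes had such a mouse, and no difference of the ADV effect between the organs passed the threshold for them over all mice.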

How the results depend on the processing

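Of 817 recomputed values, 737 kept their direction and their side of the threshold, or their count within 1.5 times. In the liver, 0 loop genes passed in ADV against LD under each of the 20 alternatives. In the kidney, 0 to 1 passed when mice were left out in turn, and 2 without A115 after scaling by the median ratio. Between the organs, with 1 gene past the threshold in each condition (Npas2, which entered only through the kidney), 0 passed in LD with a mean FPKM over 1 (where Npas2 is not tested) or quantile normalization, 2 with the replicate block, and 1 to 2 without single mice. In ADV, 0 passed with a mean FPKM over 1, 2 without mitochondrial genes, 3 with the replicate block and 1 to 2 without single mice. With the median ratio 1 passed in ADV, but that gene was Rora and not Npas2. Npas2 lost its call in ADV under 2 of the alternatives in which it was tested. The added calls without A115 were Nr1d2 in LD (0.61, limma adjusted p = 0.0321) and Nr1d1 in ADV (1.28, adjusted p = 0.0232). With the block and without A115, 3 passed in LD, 3 in ADV and 1 for the difference of the effects (against 0), where Nr1d2 changed sign to −0.28. The replicate block over all mice changed no other call after adjustment. Of the 16 relations, 1 passed as deviations from the mean of the condition (with r of the 9 still 0.74 to 0.98 in size), 4 without A115 and 0 without the 2 farthest mice (where 6 mice leave a smallest rank p of 0.0444 once multiplied by 16), against 9. Causes of these shifts were not tested.

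Several values that had not passed changed sign. Without A115 and with the median ratio, Arntl had −0.14 and Clock −0.022 in the liver, and Arntl −0.00045 and Npas2 −0.20 in the kidney. Without A94 and A115, Rora had 0.18 in the liver. Between the organs in LD, the median ratio gave −0.26 for Clock, −0.52 for Nr1d1, −0.20 for Nr1d2 and −0.64 for Rora, and quantile normalization −0.23 for Clock, −0.42 for Nr1d1 and −0.49 for Rora. In ADV they gave −0.72 and −0.71 for Clock, a pseudocount of 1 gave −0.0026 for Clock, and leaving out mitochondrial genes 0.11 for Arntl and 0.0014 for Rora. Leaving out single mice, the ranges that crossed 0 were −0.048 to 0.97 for Arntl, −0.72 to 0.0052 for Nr1d2 and −0.18 to 0.083 for Rora in the liver, and −0.043 to 0.51 for Npas2 and −0.42 to 0.62 for Nr1d1 in the kidney. Between the organs they were −0.44 to 0.044 for Arntl in LD, and −0.26 to 0.086 for Arntl, −0.11 to 0.15 for Clock and −0.28 to 0.055 for Rora in ADV. For the difference of the effects they were −0.068 to 0.42 for Arntl and −0.28 to 0.30 for Nr1d2. Depth limited Npas2 in the liver, with 0 to 43 fragments per library.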
